A study of Homo sapiens with 24 samples.

Results

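The Notch pathway was followed through 10 of its transcripts in prostate cancer cells in which POM121, a membrane-spanning nucleoporin of the nuclear pore, was knocked down. The members were picked by name: the receptors NOTCH1, NOTCH2 and NOTCH3, the ligands JAG1 and JAG2, the nuclear factors RBPJ and MAML1, and the target genes HES1, HES4 and HEY1. They are 10 of 25277 gene symbols in the table, each occurring on 1 line, and 9 of the 10 were high enough to be tested. DU145DR and 22Rv1DR are aggressive sublines of the human prostate cancer lines DU145 and 22Rv1, made in earlier work by selecting for resistance to docetaxel. In each subline there was an arm labelled Control, whose treatment is not described, an arm with siPOM121 construct 1 and an arm with siPOM121 construct 2, both commercial siRNAs given to cells in culture (the labels call these arms Knockout). Poly(A) RNA of 12 libraries was sequenced on 2 lanes each, which gives 24 samples and 2 libraries in each of 6 groups. Whether libraries of 1 group were grown as separate cultures is not said, and p-values here cover only the spread among the libraries, which may be technical. The unit is FPKM, in which fragments are scaled by transcript length and library size, deposited as log2 values with everything at or under 1 FPKM listed at 0.

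Notch signalling passes between touching cells. A ligand of the Jagged or Delta family on one cell binds a Notch receptor on its neighbour, ADAM proteases and gamma-secretase then cut the receptor, and the freed intracellular domain enters the nucleus, where it joins the DNA-binding protein RBPJ and a Mastermind co-activator such as MAML1. The complex switches on repressors of the HES and HEY families. In the prostate the pathway is known for its part in the balance between basal and luminal epithelial cells.

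RBPJ recognises a short core, and the promoters of target genes can be read for it. The sequences of 4 members are shown because HES1 and HES4 are targets whose levels set the sublines apart, and NOTCH3 and NOTCH2 are the receptors that moved most with siPOM121. They come from the RefSeq promoter table (build GRCh38.p14; the deposited values rest on another build), run 5′ to 3′ on the strand of the gene from 250 bases before to 50 bases after the annotated start, and carry TGGGAA in capitals where it occurs on either strand (TTCCCA on the other one). HES1 lies at chr3:194135898-194136197 on the plus strand, HES4 at chr1:1000048-1000347, NOTCH3 at chr19:15200946-15201245 and NOTCH2 at chr1:120069613-120069912, the last 3 on the minus strand.
HES1: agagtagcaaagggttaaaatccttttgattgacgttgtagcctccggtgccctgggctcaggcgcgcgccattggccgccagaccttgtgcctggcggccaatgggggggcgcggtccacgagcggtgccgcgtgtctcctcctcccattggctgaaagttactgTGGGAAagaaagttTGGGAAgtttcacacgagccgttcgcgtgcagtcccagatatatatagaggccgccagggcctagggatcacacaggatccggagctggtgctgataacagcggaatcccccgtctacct
HES4: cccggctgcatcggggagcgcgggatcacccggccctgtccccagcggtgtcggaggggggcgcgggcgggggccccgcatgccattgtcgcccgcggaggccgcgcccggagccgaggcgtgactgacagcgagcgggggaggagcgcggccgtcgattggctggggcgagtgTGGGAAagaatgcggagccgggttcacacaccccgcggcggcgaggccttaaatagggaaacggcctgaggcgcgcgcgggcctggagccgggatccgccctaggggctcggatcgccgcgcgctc
NOTCH3: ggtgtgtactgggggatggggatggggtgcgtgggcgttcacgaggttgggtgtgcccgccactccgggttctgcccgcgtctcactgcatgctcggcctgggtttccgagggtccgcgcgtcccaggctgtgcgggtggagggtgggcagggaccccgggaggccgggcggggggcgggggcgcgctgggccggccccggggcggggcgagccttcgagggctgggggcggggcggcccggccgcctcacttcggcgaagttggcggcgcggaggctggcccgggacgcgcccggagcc
NOTCH2: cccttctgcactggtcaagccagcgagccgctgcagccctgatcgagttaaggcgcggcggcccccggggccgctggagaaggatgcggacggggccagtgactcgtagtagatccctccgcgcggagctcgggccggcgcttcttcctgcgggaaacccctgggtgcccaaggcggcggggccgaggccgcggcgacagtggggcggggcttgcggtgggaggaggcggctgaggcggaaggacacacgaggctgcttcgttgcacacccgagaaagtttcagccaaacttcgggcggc

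In HES1 the core occurred 2 times in the same orientation, beginning at positions -84 and -70 relative to the start. In HES4 it occurred 1 time, at -76. Each of these promoters held 1 match preceded by G (GTGGGAA), a longer motif that contains the core. The windows of NOTCH3 and NOTCH2 did not hold these letters. The core was present in 24% of all 35116 listed promoters and the longer form in 6.25%. Of the members, 9 had an entry in the table, with 13 promoters in all since RBPJ has 5 annotated starts. HEY1 had none. Besides HES1 and HES4, 1 of the RBPJ promoters held the core, at -115 on the other strand and at -72 on its own. Both of these RBPJ matches were of the longer form. A match is a stretch of letters and not evidence of binding.

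**Figure D1:**
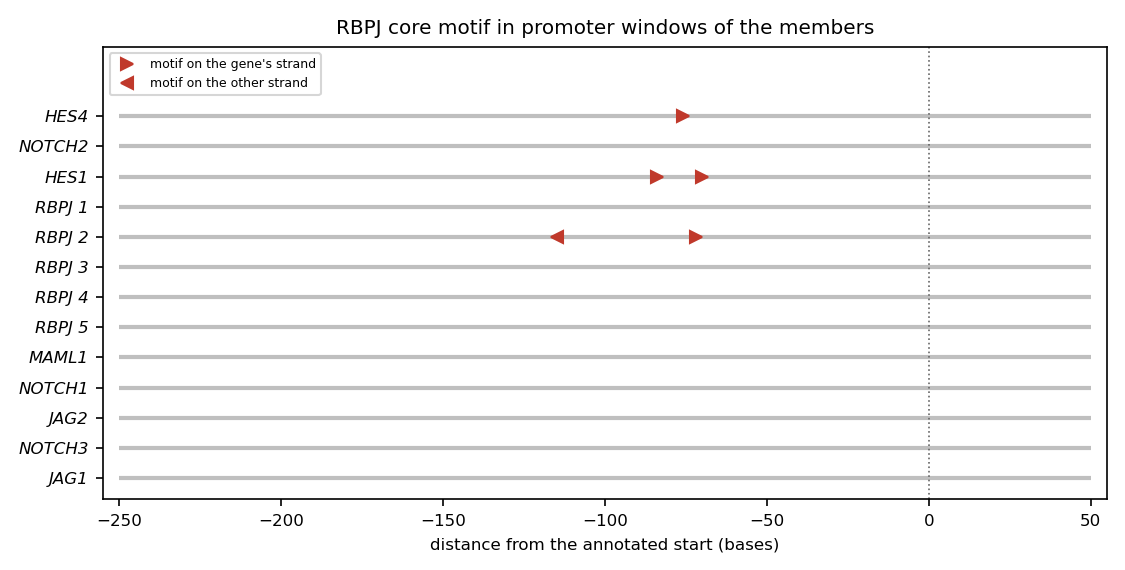
Position of the RBPJ core motif in the 13 promoter windows of 9 members, as distance in bases from the annotated start (dotted line); triangles point right for a match on the strand of the gene and left for the other strand. HES1 shows 2 matches, at -84 and -70, HES4 shows 1 at -76, and 1 of the RBPJ windows shows 2, at -115 and -72.

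The targeted transcript POM121 was lower in all siPOM121 libraries than in the controls of the same line, at 12.5 to 13.5 against 21.3 and 21.6 FPKM in DU145DR and at 6.73 to 7.81 against 37.8 and 38.5 FPKM in 22Rv1DR. Samples had 11884 to 12126 symbols above the floor in DU145DR and 12361 to 12569 in 22Rv1DR, and the read depth is unknown. Keratins KRT8 and KRT18 were present in both lines, at 35.8 FPKM or more. HOXB13, a transcription factor of the prostate, was listed at 0 in DU145DR and stood at 34.0 to 38.7 FPKM in 22Rv1DR, and CDH1, the cadherin of epithelial junctions, was listed at 0 in DU145DR. Of 11 markers of blood, endothelial and stromal cells 8 were listed at 0 in every library, and the sum of all 11 ranged from 16.0 to 17.8 FPKM in DU145DR and from 13.5 to 14.2 in 22Rv1DR. The libraries 4C and 5C, both construct 2 in 22Rv1DR, stood further apart than any other pair of a group: over 10337 symbols present in every sample their median absolute log2 difference was 0.16, against 0.04 to 0.06 elsewhere, and 39.9% of the symbols differed by over 0.2. Library 4A, a 22Rv1DR control, was read on lanes 1 and 2 and the other 22Rv1DR libraries on lanes 3 and 4. All DU145DR libraries were read on lanes 1 and 2, so apart from 4A line and lane number cannot be told apart. For calls of members in 22Rv1DR that changed without 4A, 4C or 5C the value without that library is given as well. For the other genes of the pathway such values are not given.

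The sublines differed in which members of the pathway they carried. In DU145DR controls NOTCH2 led at 19.1 FPKM, followed by MAML1 (13.2), RBPJ (12.8), NOTCH3 (12.4), JAG2 (8.87), HES4 (6.22), NOTCH1 (5.69), HES1 (3.51) and HEY1 (2.11). Neighbours in this order did not overlap between the 2 libraries, apart from HES4 and NOTCH1. In 22Rv1DR controls the target HES4 led at 22.2 FPKM, then JAG2 (17.7), HES1 (17.3), RBPJ (13.4), MAML1 (11.03), NOTCH1 (6.93), NOTCH3 (6.13), NOTCH2 (4.36) and HEY1 (1.17). Here JAG2 and HES1 overlapped and the other neighbours did not. JAG1 was listed at 0 in every control sample of both lines.

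Between control cells 8 of the 9 tested members differed, 4 higher and 4 lower in 22Rv1DR. Of all 13622 genes tested 83.0% differed (40.3% higher and 42.7% lower), so the members' share is close to the background. HES1 was higher in 22Rv1DR by 2.30 ± 0.12 on the log2 scale (SE, adjusted p = 4.69e-08), HES4 by 1.84 ± 0.15 (adjusted p = 1.37e-06) and JAG2 by 1.00 ± 0.07 (adjusted p = 5e-07). NOTCH2 was lower there, at a log2 difference of -2.13 ± 0.06 (adjusted p = 5.59e-10), as were NOTCH3 (-1.01 ± 0.06, adjusted p = 1.85e-07) and HEY1 (-0.85 ± 0.22, adjusted p = 0.0051). The 2 HES genes were thus several-fold higher in 22Rv1DR, while 2 of the 3 receptors were lower there. NOTCH1 was 0.28 higher in 22Rv1DR (adjusted p = 0.016) and MAML1 0.26 lower (a log2 difference of -0.26, adjusted p = 0.0138). Both calls were lost without 4A (adjusted p = 0.0746 for NOTCH1 and 0.0751 for MAML1) and without 2A (adjusted p = 0.104 and 0.0604). RBPJ stood at a log2 difference of 0.07 ± 0.07 (adjusted p = 0.354). Centring on the library median moved the median difference of all genes from -0.02 to 0.15, and then NOTCH1 stood at 0.46 (adjusted p = 0.000233), RBPJ at 0.24 (adjusted p = 0.00979, now called) and MAML1 at -0.08 (adjusted p = 0.258).

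**Figure D2:**
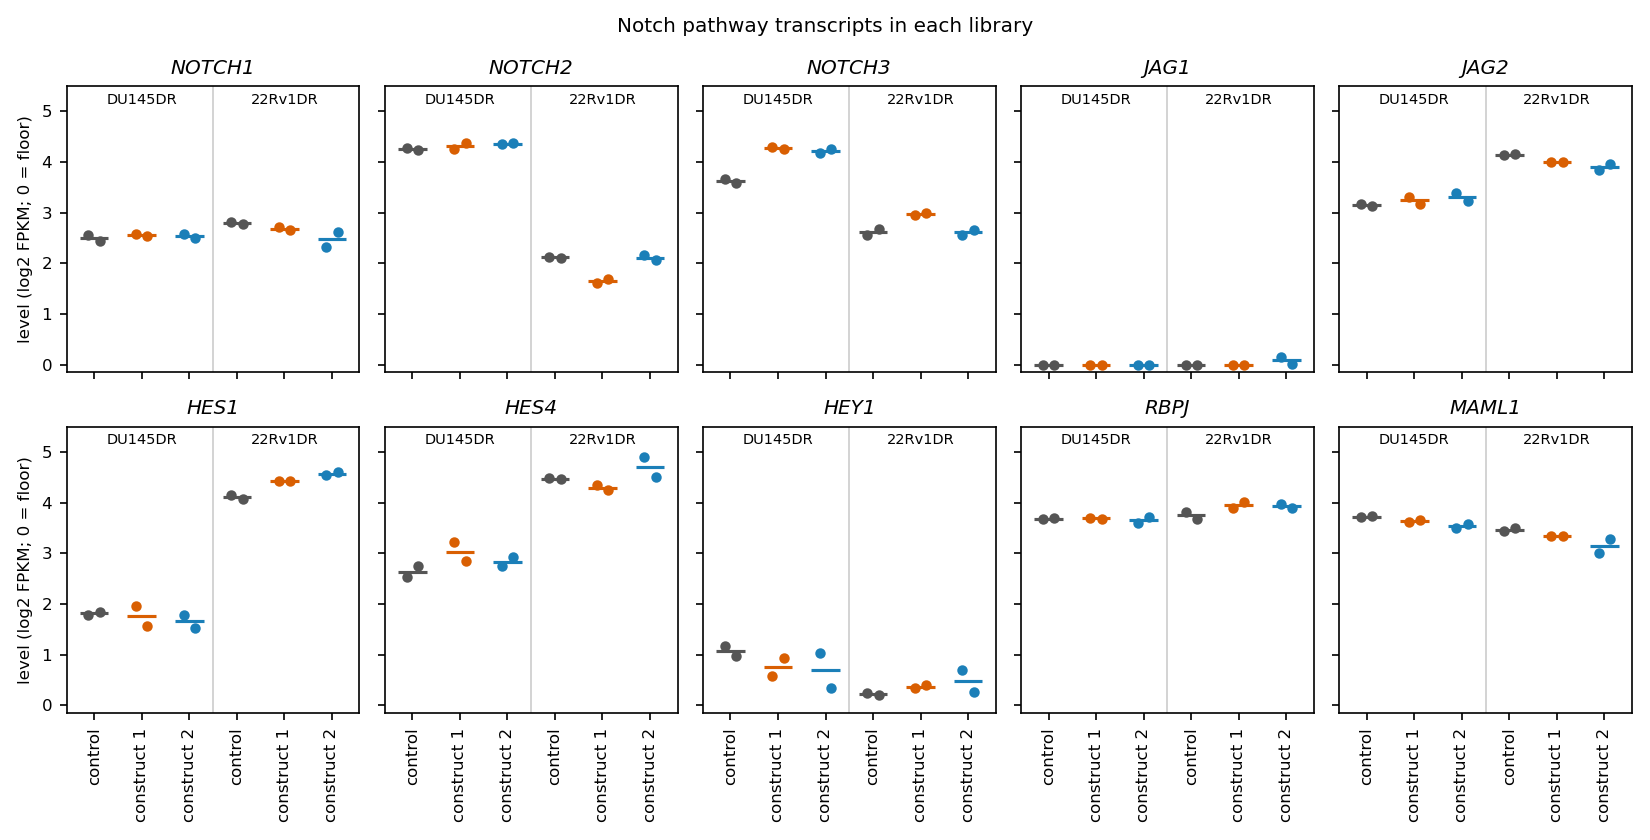
Level of each member in log2 FPKM (0 is the floor of 1 FPKM) by group; points are libraries (mean of 2 lanes) and bars the mean of the 2 libraries, in grey for control, orange for construct 1 and blue for construct 2. NOTCH3 is higher with both constructs in DU145DR and with construct 1 alone in 22Rv1DR, NOTCH2 is lower with construct 1 in 22Rv1DR, and HES1 is higher with both constructs in 22Rv1DR.

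With siPOM121, 1 of the 9 tested members changed in DU145DR and 6 changed in 22Rv1DR, taking the mean of both constructs against control. The background is 23.9% of all genes tested in DU145DR (14.5% higher, 9.37% lower) and 35.5% in 22Rv1DR (15.2% higher, 20.4% lower). With median centring 53.0% of the 22Rv1DR calls were higher, against 42.7% in the reported fit. In DU145DR NOTCH3 rose. In 22Rv1DR NOTCH3, HES1 and RBPJ rose and NOTCH2, JAG2 and MAML1 fell, all by less than 0.4 on the log2 scale. The median log2 fold change of the 9 members was 0.04 in DU145DR and 0.03 in 22Rv1DR, against 0.00 and -0.02 over all genes tested.

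NOTCH3, a receptor also prominent in smooth muscle of vessels, gave the largest response among the tested members in DU145DR. The controls stood at 12.67 and 12.1 FPKM, construct 1 at 19.7 and 19.1 and construct 2 at 18.0 and 19.0. Every siPOM121 library lay above both controls, and the constructs lay close together. The log2 fold change was 0.65 ± 0.06 for construct 1 (SE, adjusted p = 0.000332) and 0.58 ± 0.06 for construct 2 (adjusted p = 0.000712), and the mean of both was 0.61 ± 0.05, a 1.53-fold rise. The call held in each of the 24 alternatives, with log2 fold changes of 0.58 to 0.65.

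In 22Rv1DR the constructs parted for NOTCH3. Controls stood at 5.86 and 6.41 FPKM, construct 1 at 7.71 and 7.99 and construct 2 at 5.90 and 6.32. Construct 1 raised the receptor by 0.36 ± 0.06 on the log2 scale (adjusted p = 0.0033), whereas construct 2 libraries lay within the range of the controls (0.00 ± 0.06, adjusted p = 1). The difference between constructs itself passed the threshold, at -0.36 ± 0.06 for construct 2 minus construct 1 (95% interval -0.50 to -0.22, adjusted p = 0.01). It stood at -0.31 without 4C (adjusted p = 0.0206) and at -0.41 without 5C (adjusted p = 0.00155), and was no longer called without 4B (-0.39, adjusted p = 0.0647), without 5B (-0.34, adjusted p = 0.079), with array weights or with 22Rv1DR fitted alone. The rise with the mean of both constructs (0.18 ± 0.05, adjusted p = 0.0326) averages these unlike constructs. It was 0.11 without 4A (adjusted p = 0.263), 0.19 without 4B (adjusted p = 0.0566) and 0.16 without 5B (adjusted p = 0.0873), and was not called in 6 of 24 alternatives. The response was smaller in 22Rv1DR than in DU145DR by 0.44 on the log2 scale (difference -0.44 ± 0.08, adjusted p = 0.00471).

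NOTCH2, the receptor with the highest level in DU145DR, did the opposite in 22Rv1DR. Controls stood at 4.38 and 4.33 FPKM, construct 1 at 3.04 and 3.25 and construct 2 at 4.47 and 4.17. Both construct 1 libraries lay below all others of the line, and the construct 2 libraries lay on either side of the controls. Construct 1 lowered NOTCH2, with a log2 fold change of -0.47 ± 0.06 (adjusted p = 0.00064), and this held in all 24 alternatives. With construct 2 the log2 fold change was -0.01 ± 0.06 (adjusted p = 0.931), and construct 2 lay above construct 1 by 0.46 ± 0.06 (95% interval 0.32 to 0.59, adjusted p = 0.0035). That difference was not called with array weights or with 22Rv1DR fitted alone. Averaged over both constructs NOTCH2 gave -0.24 ± 0.05 (adjusted p = 0.00675), and -0.23 without 4A (adjusted p = 0.0507). In DU145DR NOTCH2 stood at 19.3 and 19.0 FPKM in controls and at 19.2 to 20.9 with siPOM121, a log2 fold change of 0.09 ± 0.05 (adjusted p = 0.271). NOTCH2 has near-identical partial copies, the NOTCH2NL genes: 4.65% of its stretches of 50 bases (longest coding transcript, GENCODE v29) are also found in another gene. That share counts exact matches only, and how far shared reads affect the level of NOTCH2 was not tested.

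For POM121 itself construct 2 minus construct 1 was -0.13 ± 0.06 in 22Rv1DR (95% interval -0.26 to -0.01, adjusted p = 0.153) and -0.07 ± 0.06 in DU145DR (-0.20 to 0.06, adjusted p = 1). Of the 9 tested members, NOTCH2 and NOTCH3 were the 2 that differed between constructs in 22Rv1DR, 1 higher and 1 lower with construct 2, where 11.6% of all genes differed (7.3% higher, 4.28% lower). In DU145DR 0 members differed by limma, also at an unadjusted p under 0.05, against 0.022% of all genes. The 95% intervals of the construct difference there ran from -0.10 to 0.18 for NOTCH2 and from -0.21 to 0.07 for NOTCH3.

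NOTCH1, the receptor known for its activating mutations in T-cell leukaemia, stood in DU145DR at 5.93 and 5.46 FPKM in controls and 5.65 to 5.99 with siPOM121. The log2 fold change was 0.04 ± 0.08 (adjusted p = 0.833). In 22Rv1DR controls stood at 7.04 and 6.83 FPKM, construct 1 at 6.57 and 6.28 and construct 2 at 5.02 and 6.17. All siPOM121 libraries lay below the controls, and 4C was lowest. Construct 2 lowered NOTCH1, with a log2 fold change of -0.32 ± 0.09 (adjusted p = 0.0257), but that was -0.17 without 4C (adjusted p = 0.0935), -0.47 without 5C (adjusted p = 0.000649), -0.29 without 4A (adjusted p = 0.114) and -0.34 without 5A (adjusted p = 0.0865). Averaged over both constructs the change was -0.21 ± 0.08 (adjusted p = 0.0639), and -0.29 without 5C (adjusted p = 0.002). With construct 1 it was -0.11 ± 0.09 (adjusted p = 0.429).

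Of the ligands, JAG1 was at or near the floor throughout. It was listed at 0 in 21 of 24 samples and stood at 1.16 and 1.07 FPKM on the lanes of 4C and 1.01 on 1 lane of 5C, so it was not tested. JAG2 stood at 9.02 and 8.71 FPKM in DU145DR controls and at 9.04 to 10.5 with siPOM121 (0.13 ± 0.06, adjusted p = 0.155). In 22Rv1DR its controls stood at 17.6 and 17.8 FPKM, construct 1 at 15.9 in both libraries and construct 2 at 14.2 and 15.6. Every siPOM121 library of 22Rv1DR was below the controls. In DU145DR every one was above them, but 2B at 9.04 FPKM barely exceeded control 1A at 9.02, and the rise was not called. The mean of both constructs gave -0.20 ± 0.06 in 22Rv1DR (adjusted p = 0.0314), and the line difference was -0.33 ± 0.09 (adjusted p = 0.0231). With construct 2 it was -0.25 ± 0.07 (adjusted p = 0.0241). That call was lost without 4C (-0.18, adjusted p = 0.0918), 4A (-0.26, adjusted p = 0.0829) or 5A (-0.24, adjusted p = 0.107), with array weights and with 22Rv1DR fitted alone. The fall with the mean of both constructs was not called in 8 of 24 alternatives: without 4A (-0.21, adjusted p = 0.121), 5A, 4B or 5B, with quantile normalization (-0.14, adjusted p = 0.0649), on the higher-numbered lanes, with array weights and with 22Rv1DR fitted alone. The line difference was not called without 1A, 2A, 4A, 5A, 4B or 5B or on the lower-numbered lanes, and without 4A it was -0.34 (adjusted p = 0.0682). In GENCODE v29 the gene model AL512356.1 overlaps 8.04% of the JAG2 exon bases on the same strand, so reads there cannot be told apart.

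The 2 nuclear factors moved in opposite directions in 22Rv1DR. RBPJ, which holds the complex on DNA, stood at 14.1 and 12.8 FPKM in controls, at 14.9 and 16.2 with construct 1 and at 15.8 and 14.9 with construct 2. All siPOM121 libraries lay above the controls, which themselves stood at 3.82 and 3.68 on the log2 scale (SD 0.10). The mean of both constructs gave 0.20 ± 0.06 (adjusted p = 0.0256), 0.21 for construct 1 (adjusted p = 0.0483) and 0.19 for construct 2 (adjusted p = 0.0527). Construct 2 was called without 4A (0.26, adjusted p = 0.0483) and without 5C (0.23, adjusted p = 0.0308), among 5 of 24 alternatives. The mean of both was not called without 5A (0.13, adjusted p = 0.236) or 5B (0.17, adjusted p = 0.0763), with array weights or with 22Rv1DR fitted alone, and the call for construct 1 was lost in 15 of 24 alternatives. In DU145DR RBPJ stood at 12.1 to 13.1 FPKM in all 6 libraries (-0.01 ± 0.06, adjusted p = 1).

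MAML1, the co-activator that bridges the complex to histone acetyltransferases, fell in 22Rv1DR. Controls stood at 10.8 and 11.3 FPKM, construct 1 at 10.2 and 10.1 and construct 2 at 8.05 and 9.77. As with NOTCH1, 4C was the lowest library. The mean of both constructs gave -0.22 ± 0.07 (adjusted p = 0.0364) and construct 2 gave -0.31 ± 0.08 (adjusted p = 0.0154), which was -0.17 without 4C (adjusted p = 0.0255), -0.45 without 5C (adjusted p = 0.000131), -0.34 without 4A (adjusted p = 0.0502) and -0.29 without 5A (adjusted p = 0.0941). The call for the mean of both was lost in 12 of 24 alternatives, among them leaving out 4A (-0.25, adjusted p = 0.101), 5A, 4B, 5B or any DU145DR library, which enters only through the pooled spread. Construct 1 alone gave -0.12 (adjusted p = 0.304), and was called without 4C or 5C (adjusted p = 0.0376 and 0.0378) and with array weights. In DU145DR MAML1 stood at 13.1 and 13.3 FPKM in controls and 11.4 to 12.6 with siPOM121. No siPOM121 library reached the controls, but the log2 fold change of -0.13 ± 0.07 did not pass (adjusted p = 0.207). It was called in 4 of 24 alternatives: without 4C or 5C, which enter here only through the pooled spread (adjusted p = 0.0167 and 0.0168), with array weights (0.0242) and with DU145DR fitted alone (0.0463). Construct 2 alone was called in the same 4.

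HES1, the target that holds back differentiation in many tissues, rose in 22Rv1DR. Controls stood at 17.8 and 16.8 FPKM, construct 1 at 21.7 and 21.6 and construct 2 at 23.2 and 24.2. The groups did not overlap, and construct 2 lay above construct 1. The mean of both constructs gave 0.39 ± 0.10 (adjusted p = 0.0169), construct 2 gave 0.46 ± 0.12 (adjusted p = 0.0169) and construct 1 gave 0.32 ± 0.12 (adjusted p = 0.0739). Without 4A the mean of both was 0.44 (adjusted p = 0.0644) and without 5A it was 0.35 (adjusted p = 0.131), and construct 2 was not called then either (0.50, adjusted p = 0.0542, and 0.41, adjusted p = 0.102). Both calls were also lost on the lower-numbered lanes and with array weights, while construct 1 was called in 7 of 24 alternatives. In DU145DR HES1 was low and scattered, at 3.45 and 3.58 FPKM in controls and 2.89 to 3.89 with siPOM121 (-0.10 ± 0.10, adjusted p = 0.555). The line difference was 0.49 ± 0.15 (adjusted p = 0.0369), called in 12 of 23 alternatives and not without 1A, 2A, 2C, 4A (0.54, adjusted p = 0.0794), 5A, 4B or 5B. The HES1 promoter printed above holds 2 core matches, as does 1 of the RBPJ promoters. A link between matches and changes in level was not tested.

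HES4, whose promoter carries 1 match, and HEY1 did not pass in either line in the reported fit. In 22Rv1DR HES4 stood at 22.4 and 22.0 FPKM in controls, 20.2 and 19.1 with construct 1 and 29.7 and 22.9 with construct 2. The 4C library was well above the rest, and with construct 2 the log2 fold change was 0.23 ± 0.15 (adjusted p = 0.262) with it, 0.04 without it (adjusted p = 0.918) and 0.42 without 5C (adjusted p = 0.0445). In DU145DR HES4 stood at 5.75 and 6.73 FPKM in controls, 9.29 and 7.17 with construct 1 and 6.69 and 7.63 with construct 2 (0.30 ± 0.13, adjusted p = 0.131). Library 1C overlapped the controls. HES4 was called there on the lower-numbered lanes (0.41, adjusted p = 0.044). Construct 1 in DU145DR, at 0.39 (adjusted p = 0.0977), was called with array weights (0.0332), without 4C (0.0383) and without 5C (0.0387). HEY1, a repressor related to the HES family, stood at 2.26 and 1.97 FPKM in DU145DR controls and 1.27 to 2.05 with siPOM121 (-0.35 ± 0.19, adjusted p = 0.225, and -0.53 without 1C, adjusted p = 0.0467), and at 1.16 to 1.62 in all 22Rv1DR libraries, close to the floor and listed at 0 on 1 lane of 5A (0.20 ± 0.19, adjusted p = 0.477). Of the 3 targets HES1 alone was called in 22Rv1DR, and differences among the targets were not tested.

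**Figure D3:**
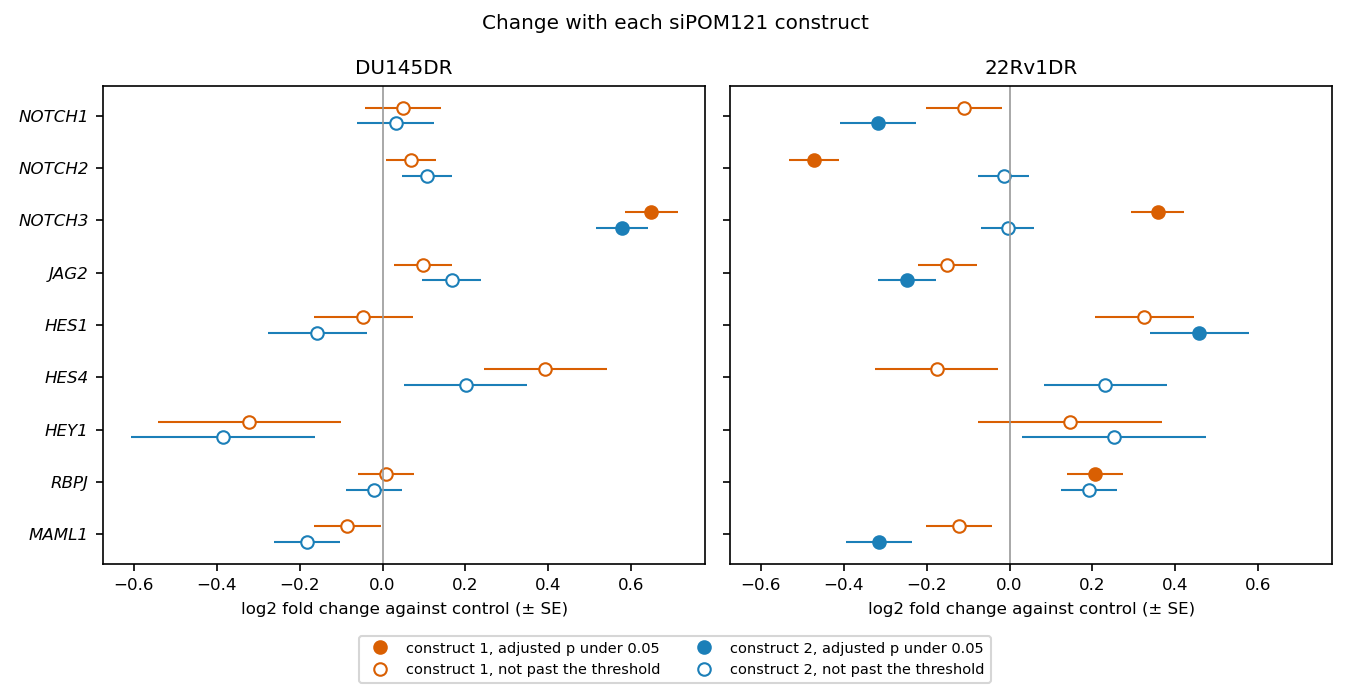
Log2 fold change against control (± SE) for the 9 tested members with construct 1 (orange) and construct 2 (blue) in DU145DR (left) and 22Rv1DR (right); filled points have an adjusted p under 0.05. In DU145DR NOTCH3 alone is filled, for both constructs, and in 22Rv1DR the filled points are NOTCH2, NOTCH3 and RBPJ for construct 1 and NOTCH1, JAG2, HES1 and MAML1 for construct 2.

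Counted by construct, 3 of the 9 tested members were called with construct 1 in 22Rv1DR (background 27.1%) and 4 with construct 2 (background 35.1%). They were NOTCH2, NOTCH3 and RBPJ for construct 1 and NOTCH1, JAG2, HES1 and MAML1 for construct 2. For NOTCH1, JAG2, HES1, MAML1 and RBPJ the difference between constructs did not pass, with adjusted p from 0.148 (MAML1) to 0.96 (RBPJ), so a call under 1 construct and not the other was not shown to differ between constructs in the reported fit. Without 5C the difference was called for NOTCH1 (-0.36, adjusted p = 0.00374), MAML1 (-0.33, adjusted p = 0.001) and HES4 (0.60, adjusted p = 0.0128), with 4C then the lone construct 2 library, and without 4C it was called for none of these 3. In DU145DR each construct called NOTCH3 alone (background 19.8% for construct 1 and 16.6% for construct 2). Both constructs of a line were compared with the same 2 control libraries. Between lines, the effect of siPOM121 differed for 4 of the 9 tested members (background 24.8%, with 8.93% higher and 15.9% lower). NOTCH2, NOTCH3 and JAG2 were lower in 22Rv1DR relative to DU145DR, and HES1 was higher. The log2 fold change of POM121 itself was -0.71 in DU145DR and -2.37 in 22Rv1DR. Subline and depth of knockdown therefore cannot be told apart here. For NOTCH2 construct 1 stood at -0.47 in 22Rv1DR and 0.07 in DU145DR, and construct 2 at -0.01 and 0.11. Line differences of single constructs were not tested. With the mean of both constructs the NOTCH2 difference between lines was -0.33 ± 0.07 (adjusted p = 0.0125). Without 5C it was also called for NOTCH1 (-0.33, adjusted p = 0.00664), MAML1 (-0.16, adjusted p = 0.037) and RBPJ (0.22, adjusted p = 0.0458), and without 1C for HEY1 (0.73, adjusted p = 0.0437).

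The rest of the pathway was read from 4 lists, leaving the members out. Changes are means of both constructs against control on the log2 scale, and over all genes tested their median was 0.00 in DU145DR and -0.02 in 22Rv1DR. The counts stand against 14.5% of all genes higher and 9.37% lower in DU145DR, and 15.2% higher and 20.4% lower in 22Rv1DR. Counts by construct in 22Rv1DR stand against 27.1% of all genes called with construct 1 and 35.1% with construct 2. Of these calls 44.1% and 41.4% were higher. In the list of receptors, ligands and the enzymes that put sugars on the receptors, 8 genes were tested, of which DLL4 and MFNG were listed at 0 in every DU145DR sample and could not change there. Of the other 6, 0 changed in DU145DR by limma, also 0 at an unadjusted p under 0.05. In 22Rv1DR 0 of 8 rose and 3 fell, with a median log2 fold change of -0.10. With construct 1 alone 0 of 8 were called (1 at an unadjusted p under 0.05), and with construct 2 alone the same 3 fell and the ligand DLL4, chosen for mention after its value was seen, rose from the floor to 1.33 FPKM (0.41, adjusted p = 0.00568). The 3 that fell are glycosylation enzymes. The glycosylation enzymes LFNG (-0.14, adjusted p = 0.481) and RFNG (-0.07, adjusted p = 0.566), also tested, were not called in 22Rv1DR. POFUT1, which adds fucose to Notch, went from 10.98 to 9.95 and 8.96 FPKM with constructs 1 and 2 (-0.22 ± 0.05, adjusted p = 0.0117). POGLUT1, which adds glucose, went from 3.23 to 2.93 and 2.20 (-0.35 ± 0.08, adjusted p = 0.00999), and it was lower with construct 2 than with construct 1 (-0.41 ± 0.09, adjusted p = 0.0257). MFNG, a Fringe enzyme that extends the fucose, went from 2.81 to 2.39 and 1.53 FPKM (-0.55 ± 0.17, adjusted p = 0.0306). NOTCH4, DLK1 and DLK2 were listed at 0 in every sample.

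Of the genes of receptor cleavage and turnover 6 of 21 rose and 1 fell in 22Rv1DR (median 0.09), and 3 rose and 1 fell in DU145DR (median 0.06). By construct in 22Rv1DR, 7 rose and 0 fell with construct 1, and 5 rose and 5 fell with construct 2. Over all genes tested 27.1% were called with construct 1 and 35.1% with construct 2, in either direction. The difference between the constructs in the counts of this list was not tested. ADAM10, the protease of the first ligand-induced cut, rose by 0.33 in 22Rv1DR (adjusted p = 0.000384; 20.5 FPKM in control, 25.4 and 26.1 with the constructs) and rose by 0.13 in DU145DR (adjusted p = 0.041), where the level was 34.9, 37.9 and 38.6 FPKM. MIB1, the ubiquitin ligase that lets ligands pull on the receptor, rose by 0.44 in 22Rv1DR (adjusted p = 0.000108) and by 0.21 in DU145DR (adjusted p = 0.00597). FURIN, which cuts the receptor on its way to the surface, rose by 0.32 in 22Rv1DR, and FBXW7, which marks the intracellular domain for decay, by 0.34. FURIN and FBXW7 stood at 0.03 and 0.04 in DU145DR, and the line difference passed for each, as it did for MIB1 and ADAM10. PSEN2, a subunit of gamma-secretase, fell in DU145DR, with 8.26 FPKM in control and 6.51 and 6.62 with the constructs (-0.33, adjusted p = 0.0116). DTX4 rose there by 0.26, close to the floor, and was listed at 0 in 22Rv1DR.

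In the nuclear list 5 of 19 rose and 1 fell in DU145DR (median -0.01), and 1 rose and 6 fell in 22Rv1DR (median -0.12; 1 and 5 with construct 1, 1 and 8 with construct 2). MAML3 in DU145DR and MAML2 in 22Rv1DR were listed at 0 and could not change there. MAML2, a second Mastermind, stood at 1.13 FPKM in DU145DR controls and at 1.77 and 1.85 with the constructs (0.68, adjusted p = 0.000469). With the controls close to the floor, the size of that rise is uncertain. TLE2, a Groucho co-repressor, turned around between lines: it rose by 0.63 in DU145DR (adjusted p = 0.000593; 10.9 FPKM in control, 17.0 and 16.8 with the constructs). In 22Rv1DR it fell (-0.37, adjusted p = 0.00522; 9.71, 8.22 and 6.89 FPKM), and the line difference was -0.995 (adjusted p = 0.000532). The deacetylase HDAC1 did so too, by 0.19 and -0.21 (line difference -0.40, adjusted p = 0.00279). The acetyltransferase KAT2B rose in both lines, by 0.31 and 0.30. CREBBP, an acetyltransferase of the activating complex, fell in both, with -0.18 in DU145DR and -0.35 in 22Rv1DR. KAT2A fell in 22Rv1DR (-0.36), and TLE4 rose in DU145DR (0.22).

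Among 10 further target genes 2 rose and 2 fell in DU145DR (median 0.03) and 4 rose and 1 fell in 22Rv1DR (median 0.08; 3 and 1 with construct 1, 5 and 1 with construct 2). HES2 rose by 0.74 in DU145DR (adjusted p = 0.00169), from 1.06 FPKM in control to 1.75 and 1.79 with the constructs. The control lay close to the floor, so the size of this rise and of the line difference is uncertain. In 22Rv1DR it stood at 3.95, 3.38 and 3.03 FPKM (-0.30, adjusted p = 0.06), with a line difference of -1.05 (adjusted p = 0.00228). BHLHE40, a repressor that also answers to hypoxia, fell in DU145DR (-0.55, adjusted p = 0.0147; 28.4 FPKM in control, 19.0 and 19.9 with the constructs). It rose by 0.68 in 22Rv1DR (adjusted p = 0.0039; 5.33, 8.05 and 9.001 FPKM), and the line difference was 1.22 (adjusted p = 0.00228). The cell cycle inhibitor CDKN1A rose in both lines (0.39 and 0.62), and CCND1, cyclin D1, fell in both (-0.41 and -0.19). ID1 rose in 22Rv1DR (0.47, adjusted p = 4.1e-05), more with construct 1 than with construct 2 (difference -0.40, adjusted p = 0.00145), and SOX9 rose there by 0.21. HES3, HES5, HEY2 and DTX1 were listed at 0 throughout. Several of these targets, CDKN1A, CCND1 and ID1 among them, also answer to other pathways.

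**Figure D4:**
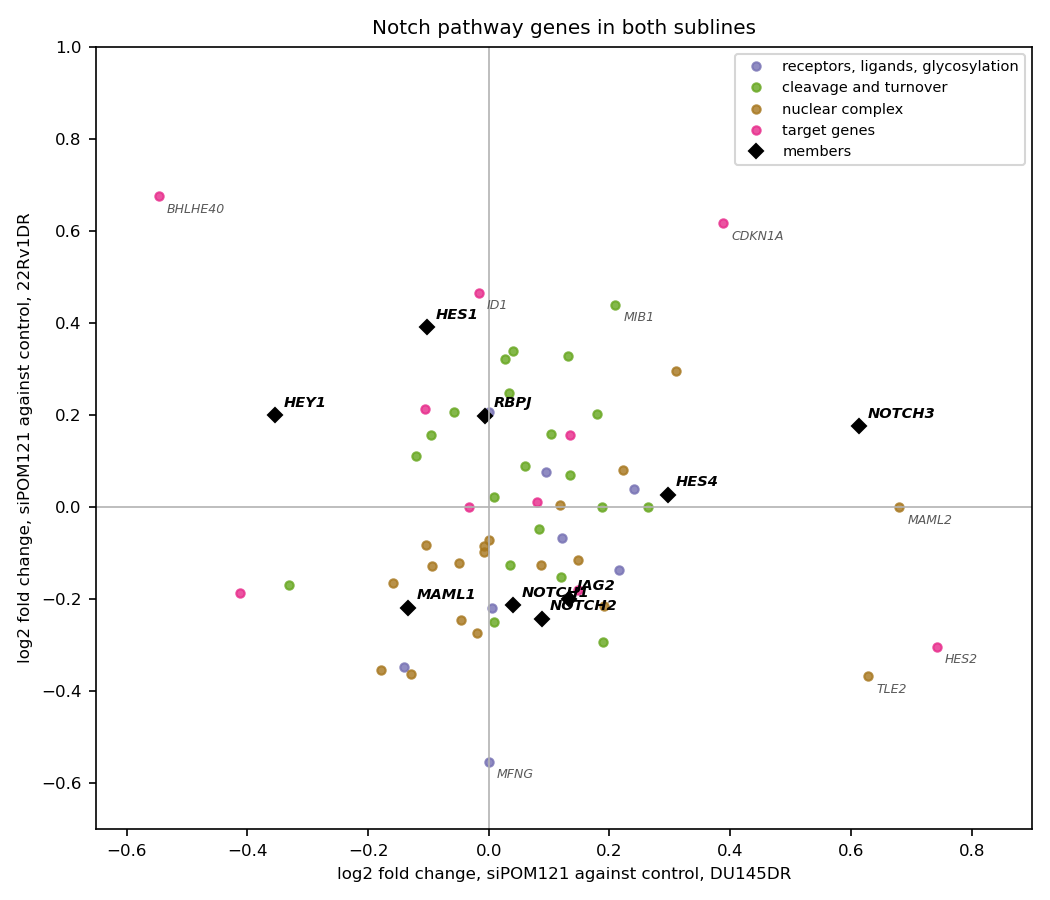
Log2 fold change with siPOM121 (mean of both constructs) in DU145DR on the horizontal axis and in 22Rv1DR on the vertical axis for the 9 tested members (black diamonds) and the other tested genes of the pathway lists (coloured by list). NOTCH3 lies far right at 0.61 and 0.18, HES1 upper left of centre at -0.10 and 0.39, and TLE2 and HES2 in the lower right.

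For the 6 members called in either line, the genes with the most similar pattern over the 12 libraries were found by the root mean square difference of log2 values, each centred within its line. NOTCH3 was nearest to LRP1, an endocytic receptor (0.073 log2 units, against a median of 0.26 over all genes tested), AKR1C3, a steroid-converting enzyme (0.074), and GPR56, an adhesion receptor (0.075). These genes stood at 0.60, 0.75 and 0.51 in DU145DR and at 0.29, 0.21 and 0.14 in 22Rv1DR. NOTCH2 was nearest to NUSAP1 (0.038), HJURP (0.044) and RFC5 (0.046), which act in mitosis, at centromeres and in DNA replication. HES1 was nearest to the transcription factor FOXC1 (0.078), the autophagy gene ATG12 (0.081) and the carrier SLC25A33 (0.082). JAG2 was nearest to PCNXL3, FZR1 and CLN3 (0.037 to 0.040), MAML1 to UBAP2L, GCN1L1 and COQ4 (0.032 to 0.035) and RBPJ to EPHA3, ATP2B1 and DZIP1 (0.035 to 0.039). EPHA3 and DZIP1 were listed at 0 in all 12 DU145DR samples, so their likeness to RBPJ carries no information from that line. LRP1 and GPR56 were listed at 0 in 5 and 6 of the 12 22Rv1DR samples. Likeness of this kind is a description of 12 libraries.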

How the data were processed

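Poly(A) RNA-seq of 24 samples (12 libraries on 2 lanes) was processed by the authors with TopHat and Cufflinks; hg19 and mm10 are the builds listed, both per the submitters' processing notes, without versions. The deposited values are log2 FPKM, with no negative value and 52.8% at 0, which is taken as a floor at 1 FPKM. The log base was read from the values: raised as powers of 2 they return numbers of 6 significant digits. Other steps of the authors are not given in the sources used here. Read depth is unknown, so no counting interval is given. For 605 symbols on several lines the one highest on average was used. Lanes were averaged, and testing required values over the floor on both lanes in 2 or more of the 12 libraries. limma 3.58.1 in R 4.3.3 was fitted to the 6 groups with trend and robust moderation (6 residual degrees of freedom), 2-sided, with Benjamini-Hochberg adjustment over 13622 symbols and a threshold of 0.05. SE and 95% intervals are moderated. The fit was tested on simulated data.

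Members, lists and tests were chosen with earlier results of these data known. Named were the members, POM121 and up to 5 called genes with the smallest p per list and line. The 3 genes nearest to each called member, genes listed at 0, LFNG and RFNG are named besides. Alternatives were 12 changes of scaling, filter, pseudocount, fit, lanes, weights or repeated symbols, and leaving out each of the 12 libraries. Promoters are from RefSeq (GRCh38.p14), and shared windows and overlaps from GENCODE v29. No coordinates of the deposited build are printed. Some genes covered by these rules are not reported here.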

Additional observations from a re-analysis of the deposited data

Results flagged for a closer look

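The effect of siPOM121, as the mean of both constructs, differed between the sublines by an interaction test in limma for 4 members. As the 22Rv1DR effect minus the DU145DR effect (log2 scale), it was -0.33 for NOTCH2, -0.44 for NOTCH3, -0.33 for JAG2 and 0.49 for HES1. For POM121 itself it was -1.66, so subline and depth of knockdown cannot be told apart. Without 2A the differences of NOTCH2, JAG2 and HES1 were not called, while that of NOTCH3 was called in every alternative, with -0.50 to -0.37.

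One of the 4 samples of a group lay far from the others. HES1 in 22Rv1DR controls had a log2 FPKM of 4.00 on lane 3 of library 5A, against 4.14 for the nearest of the others. Chance alone marks about 1 in 20 groups, of which 55 were examined, and 4 lanes from 2 libraries are not independent.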

How the results depend on the processing

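The depth is unknown and limits what can be said of genes near the floor, among them HEY1 and JAG1, and HES2 and MAML2 in DU145DR. Of the 9 tested members, the number called in DU145DR was 1 in the reported fit and 2 with the line fitted alone, on the lower-numbered lanes alone or with array weights, and 1 to 2 when 1 library was left out (2 without 1C, 4C or 5C). Construct 1 in DU145DR gave 2 with array weights (1 to 2), and construct 2 gave 2 with the line fitted alone and with array weights (1 to 2). In 22Rv1DR the number for the mean of both constructs was 6, but 1 with the line fitted alone and 2 with array weights (1 to 7 leaving out 1 library, with 1 without 4A, 2 without 5A or 5B and 3 without 4B). Construct 1 in 22Rv1DR gave 3, and 5 with array weights (2 to 4). Construct 2 gave 4, but 1 with the line fitted alone and 0 with array weights (0 to 6, with 0 without 5A, 1 without 4A and 2 without 4C). Between constructs in 22Rv1DR the 2 calls became 0 with the line fitted alone and with array weights (1 to 5, with 5 without 5C and 1 without 4B or 5B). For the line difference the 4 calls were 2 on the lower-numbered lanes (1 to 7, with 7 without 5C, 1 without 2A and 2 without 1A, 4A, 5A, 4B or 5B). The cause of these shifts was not tested. Fits of 1 line or without 1 library also hold fewer samples, and counts went both up and down when 1 library was left out. No called value of a member changed sign in any alternative.

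No pairing by library number was seen: deviations of same-numbered libraries correlated at -0.102 to 0.126. Whether the number marks a shared culture or day is not said. With a replicate block 6 members were called in 22Rv1DR, 1 in DU145DR and 2 with construct 1 in 22Rv1DR, where RBPJ was lost; between controls it was 7, with NOTCH1 lost (adjusted p = 0.101).

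Over all genes tested the counts moved too when 1 library was left out: 3253 in DU145DR became 1551 to 5136, 4842 in 22Rv1DR became 2548 to 7016, 1577 between constructs in 22Rv1DR became 223 to 5983 and 3377 for the line difference became 1689 to 6180. By construct they were 1299 to 4631 and 995 to 4136 in DU145DR, and 1928 to 5875 and 2456 to 7165 in 22Rv1DR. In the other alternatives the lowest counts were 2318, 2065, 71 and 2338 and the highest 5160, 5190, 2038 and 3943, in the order of the first sentence, and by construct 1922 to 4680, 1547 to 4090, 1485 to 6120 and 1516 to 5101. In 22Rv1DR 42.7% of calls were higher, and 53.0% with median centring; for the line difference it was 36.0%, and 49.2% with quantile normalization.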
